A study of Mus musculus with 9 samples.

Results

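The genes described here are 10 Krüppel-like factors (KLFs), Klf1, Klf2, Klf3, Klf4, Klf6, Klf7, Klf9, Klf10, Klf12 and Klf13. They were taken by gene symbol from the 31053 genes of the count matrices, which hold 17 Klf genes in all. The 10 were chosen with earlier results of these data known, so counts among them do not describe an unselected family. KLFs are transcription factors that bind GC-rich and CACCC elements through zinc fingers at their carboxy terminus, while their more variable amino termini recruit activators or repressors. In blood cells several of them are known for holding cells in a resting or differentiated state. Some, among them Klf2, Klf4, Klf6 and Klf10, are also early-response genes whose mRNA can move quickly when cells are stimulated or handled.

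RNA of single LSK cells was counted in 9 samples, 1 library each, from C57BL/6 mice. LSK cells are bone marrow cells sorted as lineage-negative, Sca1+ and cKit+, a gate that holds haematopoietic stem cells (HSCs) and multipotent progenitors (MPPs). The 3 young samples came from mice 10 to 12 weeks old and the 3 aged samples from mice over 80 weeks old, both injected with the vehicle cyclodextrin. The 3 CASIN samples came from mice over 80 weeks old that received CASIN, an inhibitor of the activity of the small GTPase Cdc42, in cyclodextrin at 25 mg/kg by 4 intraperitoneal injections, 1 every 24 h, with harvest on day 5. All cells were viably frozen and thawed before library preparation with 10x Genomics 3′ v3 chemistry. The study asks which features of aged LSK cells CASIN returns towards those of young ones. The labels do not say whether a sample is 1 mouse or a pool, and p-values here measure the spread between these samples.

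The libraries were sequenced in 2 batches. Young 1, young 2, aged 1, CASIN 1 and CASIN 2 made up batch 1, and young 3, aged 2, aged 3 and CASIN 3 made up batch 2. Each sample kept 1112 to 2417 cells with 17555578 to 35118707 unique molecular identifiers (UMIs), 15856 cells in all. The limit on mitochondrial RNA and the other filters kept 56.4% to 86.2% of the barcodes of batch 1 and 31.6% to 38.4% of those of batch 2. Kit (112 to 225 CPM, the usual scaling of a gene's UMIs by the total UMIs of the cells summed) and Ly6a (87.9 to 186 CPM), which encode cKit and Sca1, were present in every sample, while Cd8a and Ly6g stayed at or below 0.0483 CPM and Itgam ranged from 3.59 to 10.8 CPM. The libraries shared cell barcodes, at most 85 per pair, and 306 kept cells (1.93%) carried a barcode seen in another library. Leaving these cells out left the counts of called KLFs as they were where this was tried. It was tried for batches, for clusters over both batches, and for groups in all LSK, HSC-1-like and LMPP-like cells, as described below. Groups in the other clusters were not refitted this way.

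Klf2 (chr8:72319033-72321656, forward strand, 3 exons) maintains quiescence and trafficking of lymphocytes, and Klf4 (chr4:55527143-55532466, reverse strand, 5 exons) drives monocyte differentiation and restrains proliferation. Klf6 (chr13:5861482-5870394, forward strand, 4 exons) and the closely related Klf7 (chr1:64029447-64122282, reverse strand, 4 exons) act mainly as activators. Klf10 (chr15:38291463-38300706, reverse strand, 4 exons) is an early target of TGF-β signalling. Klf9 (chr19:23141226-23168134, forward strand, 2 exons) and Klf13 (chr7:63886351-63938915, reverse strand, 2 exons) belong to the branch that binds the corepressor Sin3a, and Klf9 responds to glucocorticoids. Klf3 (chr5:64803388-64832901, forward strand, 6 exons) and Klf12 (chr14:99870632-100284679, reverse strand, 7 exons) repress through CtBP. Klf1 (chr8:84901928-84905291, forward strand, 3 exons) is the master activator of erythroid genes. Positions are on GRCm38. Klf7, Klf12 and Klf13 overlap other genes that were also counted (Gm26649 and Gm13748, 4930517O19Rik, and E030018B13Rik). The sources used here do not state how the counting treated strand, so reads of these partners may not be separable.

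The promoters of 4 members whose mRNA levels differed between groups, clusters or batches below are printed. Klf10, which also differed, has no promoter in the RefSeq table used. Klf2 and Klf4 had the most similar profiles of all pairs, and Klf9 and Klf13 differed most steeply between the batches together with Klf2 and Klf3. Each run has 250 bases before and 50 bases from the start site, from RefSeq on GRCm38.p6, 5′ to 3′ on the strand of the gene. Capitals mark TGACG or its reverse complement CGTCA, the core bound by ATF and CREB proteins, and in Klf2 also the MEF2 site.
Klf2 promoter, chr8:72318812-72319111, forward strand: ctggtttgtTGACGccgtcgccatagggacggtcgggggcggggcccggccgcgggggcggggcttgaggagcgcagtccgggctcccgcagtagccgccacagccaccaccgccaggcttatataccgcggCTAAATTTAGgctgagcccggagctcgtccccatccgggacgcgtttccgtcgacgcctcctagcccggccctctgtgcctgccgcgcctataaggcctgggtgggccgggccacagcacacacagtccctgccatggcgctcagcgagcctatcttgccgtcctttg
Klf4 promoter, chr4:55532426-55532725, reverse strand: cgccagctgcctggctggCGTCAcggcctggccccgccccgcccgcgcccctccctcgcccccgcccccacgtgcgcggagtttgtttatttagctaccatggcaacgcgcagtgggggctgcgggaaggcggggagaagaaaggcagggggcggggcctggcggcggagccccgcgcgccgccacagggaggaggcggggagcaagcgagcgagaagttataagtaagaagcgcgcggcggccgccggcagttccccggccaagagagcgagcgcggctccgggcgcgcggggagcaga
Klf9 promoter, chr19:23140976-23141275, forward strand: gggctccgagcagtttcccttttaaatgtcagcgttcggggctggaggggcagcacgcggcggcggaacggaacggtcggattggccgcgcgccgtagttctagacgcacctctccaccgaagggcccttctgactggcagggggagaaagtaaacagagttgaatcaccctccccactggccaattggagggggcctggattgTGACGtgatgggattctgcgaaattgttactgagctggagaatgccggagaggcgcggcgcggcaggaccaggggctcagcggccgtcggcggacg
Klf13 promoter, chr7:63938866-63939165, reverse strand: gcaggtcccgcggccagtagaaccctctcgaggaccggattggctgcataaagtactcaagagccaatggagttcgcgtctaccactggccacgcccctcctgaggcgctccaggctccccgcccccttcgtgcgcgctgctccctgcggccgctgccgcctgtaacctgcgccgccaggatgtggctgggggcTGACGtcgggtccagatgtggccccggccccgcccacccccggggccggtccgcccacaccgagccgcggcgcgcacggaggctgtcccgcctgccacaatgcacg
TGACG, searched on both strands, was found in 6 of the 9 members with a promoter in the RefSeq table (Klf2, Klf3, Klf4, Klf9, Klf12 and Klf13) and in 20.8% of all 32851 promoters. CACCC, the element that KLFs themselves bind, was found in 7 of the 9 and in 57.5% of all promoters, and the MEF2 site in Klf2 and in 3.19%. The CArG box bound by SRF was found in none of the 9 windows and in 1.63% of all promoters. A match is a description of the letters in the window.

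Levels of the members are likewise CPM. Tags at the 3′ end do not scale with gene length, so levels are compared between samples and clusters and not between genes. Klf2 was counted with 43537, Klf6 with 36512 and Klf13 with 34008 UMIs over the 9 samples, whereas Klf12 had 527 and Klf1 90. Klf1 was at 0.169 to 0.704 CPM and Klf12 at 1.96 to 3.38 CPM in all LSK cells. At that depth only large differences of these 2 genes could be resolved.

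Several KLFs, above all Klf2, Klf3, Klf9 and Klf13, differed steeply between the sequencing batches. Klf2 in all LSK cells was at 238, 257, 424, 398 and 460 CPM in young 1, young 2, aged 1, CASIN 1 and CASIN 2 (batch 1) and at 15.8, 63.1, 43.5 and 21.0 CPM in young 3, aged 2, aged 3 and CASIN 3 (batch 2). Klf13 was at 52.6, 62.3, 59.9, 61.8 and 66.6 CPM in the same samples of batch 1 and at 267, 310, 296 and 323 CPM in those of batch 2. Klf2 was thus high in every library of batch 1 and Klf13 in every library of batch 2, with no overlap between batches for either gene. Klf3 ranged from 18.6 to 24.7 CPM in batch 1 and from 86.2 to 130 CPM in batch 2. Klf9 ranged from 24.4 to 66.4 CPM in batch 1 and from 168 to 205 CPM in batch 2.

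With the groups in the model, batch 2 against batch 1 had 8 of the 10 members at an adjusted p below 0.05 (edgeR's quasi-likelihood test, Benjamini-Hochberg adjustment), where 71.0% of the 13948 genes tested passed, so the count itself is near the background. The log2 difference was −3.77 ± 0.25 (SE) for Klf2, 2.34 ± 0.13 for Klf3, 2.29 ± 0.08 for Klf13 and 1.95 ± 0.18 for Klf9. Klf4 (1.02 ± 0.22) and Klf7 (0.99 ± 0.13) were higher in batch 2, and Klf1 (−1.05 ± 0.34) and Klf10 (−0.30 ± 0.12) were lower. Klf6 (0.13 ± 0.14) and Klf12 (0.07 ± 0.19) did not pass. Beside this, 16 of 24 immediate early and handling-response genes were lower in batch 2 and 5 higher, with a median of −0.99. The 71.0% of all genes joins both directions. At an unadjusted p below 0.05, 5186 of the 13948 genes were higher in batch 2 and 5013 lower. The median mitochondrial share of all barcodes was 2.73% to 4.61% in the libraries of batch 1 and 13.0% to 15.5% in those of batch 2. The part of either in the batch differences was not tested. Groups are therefore compared below with batch as a term, and within-batch values stand beside the calls in all LSK and HSC-1-like cells. The plot of levels by sample shows the batch and the group together.

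**Figure D1:**
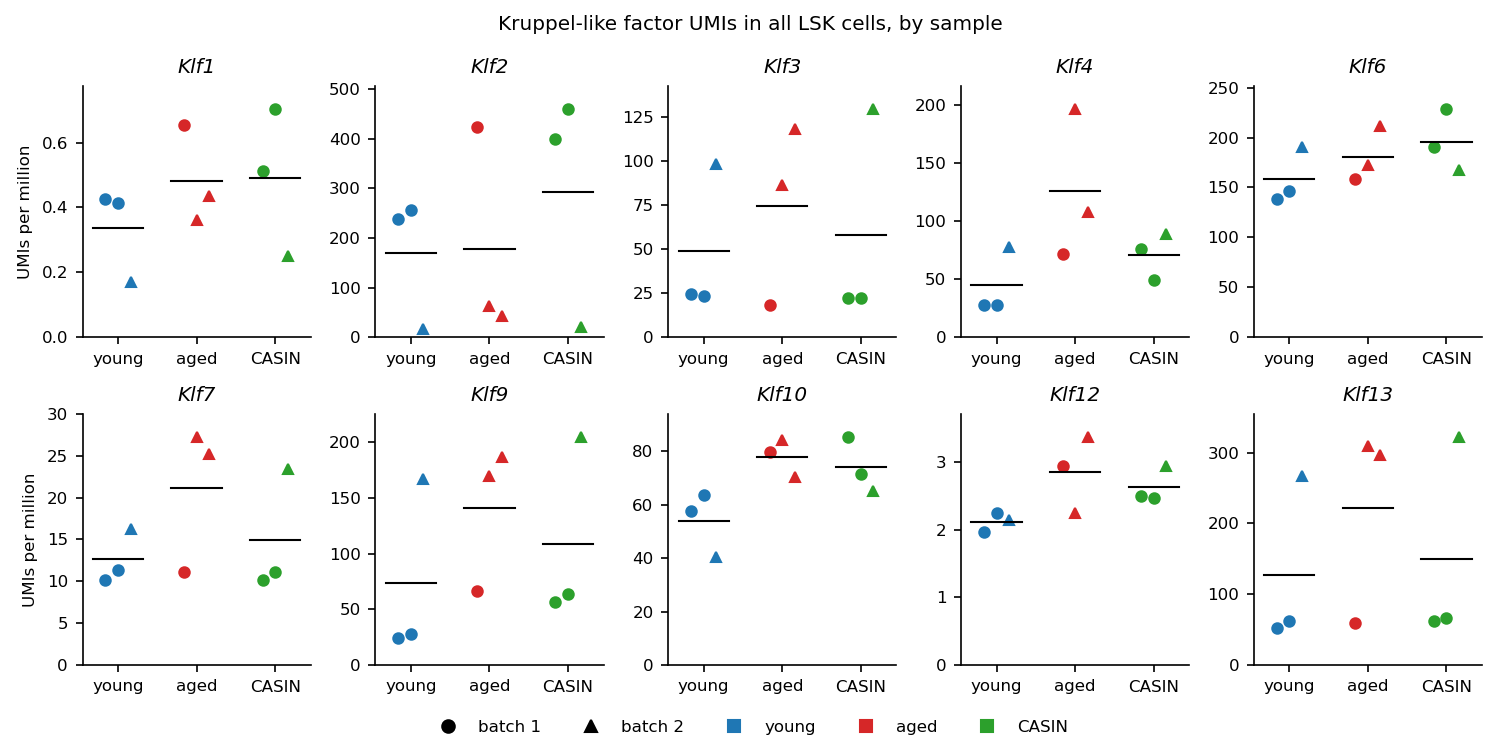
CPM of each Krüppel-like factor in all LSK cells (y axis, linear, from 0) for young, aged and CASIN samples (x axis), 1 point per sample, circles for batch 1 and triangles for batch 2, with bars at the mean of 3 samples. For Klf2, Klf3, Klf9 and Klf13 the points separate by symbol shape; for Klf10 the 3 aged points (70.3 to 84.1 CPM) lie above the 3 young points (40.3 to 63.6 CPM).

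To compare subsets, cells were clustered after every Klf gene had been left out of the clustering features, and clusters were named from marker genes. The HSC-1-like cluster (4113 cells) had all 12 stem cell markers of its list detected, among them Vwf, Procr and Mllt3, with 7 of them among its 10 leading genes, and the LMPP-like cluster (2686 cells) had all 9 markers of lymphoid-primed progenitors detected, with Dntt among its leading genes. The other tested clusters were MPP3-like, CC-1-like (S phase), MPP2-like, HSC-3-like (led by MHC class II genes), and 2 unnamed clusters, 6 (led by Hist1h2bc and Hist1h1c) and 7 (led by Cxcl12, Cxcl14 and Lars2). Each cluster was compared with the mean of the others, with sample as a block. Clusters share the libraries they were drawn from, and the model had no term for a cluster difference that changes between batches. These p-values measure the spread of the sums per cluster and sample around that model. A call can therefore join opposite directions in the 2 batches.

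All 9 members tested were higher in HSC-1-like cells, where 30.3% of the 11451 genes tested were higher. Klf9 (1.23 ± 0.10, SE), Klf4 (1.16 ± 0.16), Klf12 (0.99 ± 0.19) and Klf2 (0.90 ± 0.15) had the largest log2 differences, followed by Klf6 (0.63), Klf7 (0.51), Klf13 (0.33), Klf3 (0.26) and Klf10 (0.22). Klf3 lost its call without aged 2 or aged 3, and Klf10 without young 3, aged 3 or CASIN 3. HSC-1-like cells held 40.8% of all Klf2 UMIs, 36.7% of those of Klf9 and 31.7% of those of Klf4, beside 20.9% of all UMIs and 25.9% of the cells. Their shares of Klf3 (26.1%) and Klf10 (25.7%) UMIs lay near that share of cells. All these shares pool both batches. In young 3, aged 2, aged 3 and CASIN 3 (batch 2), these cells were 19.2%, 23.3%, 21.6% and 34.1% of all kept. There they held 31, 173, 166 and 134 Klf2 UMIs of 280, 1400, 902 and 585. Of 1370, 4354, 2229 and 2457 Klf4 UMIs they held 245, 938, 374 and 566. In each of these samples both shares lay below the share of cells. Klf1 had too few UMIs to be tested.

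HSC-3-like cells had 4 members higher (Klf2, Klf4, Klf6 and Klf9), beside 15.1% of genes. In batch 2 alone Klf2 (−0.70) and Klf6 (−0.32) were called lower there, and over both batches Klf2 lost its call without CASIN 1 or CASIN 2, Klf6 without CASIN 1 and Klf4 in cells thinned to 4000 UMIs. Cells in S phase stood at the other end, with 8 of 9 members lower in the CC-1-like cluster, all but Klf10, beside 34.2% of genes lower. These levels are relative to all UMIs, and CC-1-like cells had a median of 24501 UMIs beside 9832 in HSC-1-like cells. The CC-1-like cluster held 12.6% of all UMIs and 6.96% of the cells. With both batches pooled, only Klf2 (5.46% of its UMIs) and Klf12 (5.88%) of the tested members lay below that share of cells. In every sample of batch 1 the shares of Klf4 and Klf6 UMIs also lay below this cluster's share of cells. Klf2 lay above it in every sample of batch 2. In young 3, aged 2, aged 3 and CASIN 3 it had 41, 226, 120 and 64 of 280, 1400, 902 and 585 UMIs there. CC-1-like cells were 8.16%, 8.64%, 6.95% and 6.08% of the cells of those samples. In batch 2 alone Klf2 was called higher there (0.57, against −1.30 in batch 1), and in thinned cells Klf4 and Klf7 lost their calls. MPP2-like cells had 5 members lower beside 19.8% of genes, of which Klf3 lost its call without young 1, young 2, aged 1 or CASIN 2 and, like Klf7, in thinned cells. In LMPP-like cells Klf9 (−1.29 ± 0.13) and Klf12 (−1.22 ± 0.26) were lower, beside 21.1% of genes. MPP3-like cells had Klf2 and Klf4 lower beside 4.40%, calls that held in 3 of 9 fits without 1 sample for Klf2 (those without young 3, aged 1 or aged 2) and in 1 of 9 for Klf4 (that without CASIN 3). Cluster 6 had Klf2 higher beside 10.7%, which was lost without young 1, without young 2 and without the cells of highest doublet score. Cluster 7 had Klf9, Klf10 and Klf12 higher beside 26.1%, of which Klf10 was lost without aged 2, aged 3, CASIN 1 or CASIN 3, and Klf9 and Klf10 with a mitochondrial limit of 5%. Cluster 7 had the highest median share of mitochondrial UMIs among the tested clusters, 6.76%. In batch 2 alone Klf2 (−0.15), Klf3 (−0.09) and Klf7 (−0.21) in MPP2-like cells were not called. The same held for Klf4 in CC-1-like (−0.19) and Klf2 in MPP3-like cells (−0.20). It also held for Klf2 in cluster 6 (0.23) and for Klf9 (0.26) and Klf12 (0.98) in cluster 7. In batch 1 alone Klf10 in cluster 7 (0.12) was not called.

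**Figure D2:**
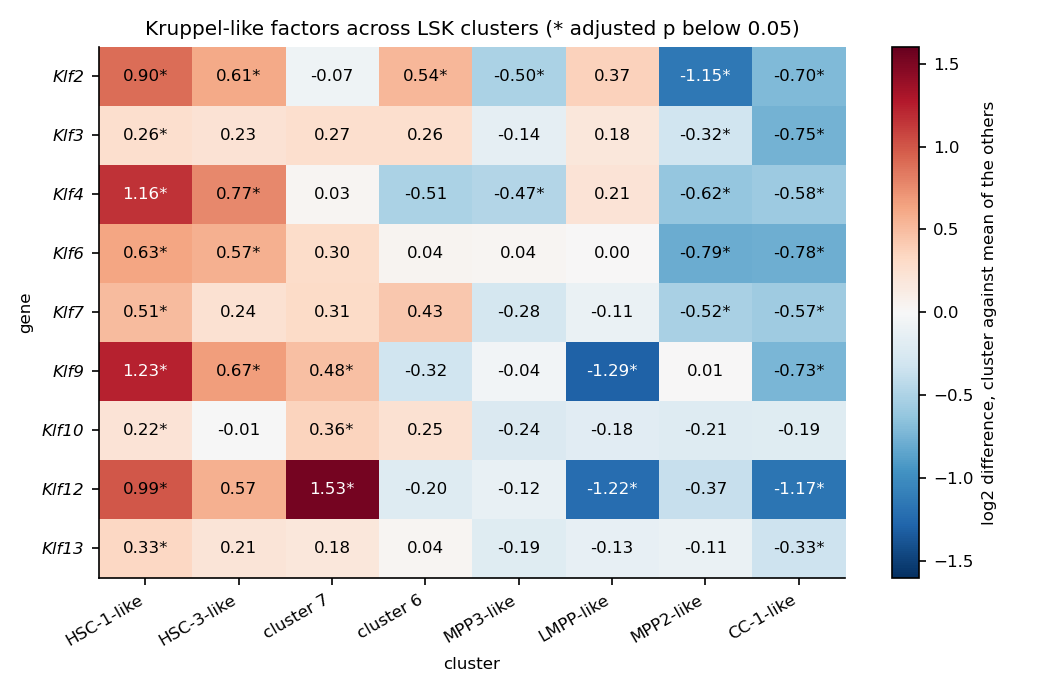
Log2 difference of each Krüppel-like factor (rows) between a cluster (columns) and the mean of the other tested clusters over 9 samples, coloured from blue (lower) to red (higher), with an asterisk at an adjusted p below 0.05. The HSC-1-like column is red throughout (0.22 to 1.23), and the CC-1-like column is blue throughout (−0.19 for Klf10 to −1.17 for Klf12), though Klf6 in HSC-1-like cells (−0.33) and Klf2 in CC-1-like cells (0.57) turned in batch 2 alone and Klf13 in HSC-1-like cells (−0.035) in batch 1 alone.

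These subset differences were not the same in both batches, which were fitted separately after the values had been seen. Klf9 was higher in HSC-1-like cells in batch 1 (1.63) and in batch 2 (0.82), and so were Klf7 (0.34 and 0.69) and Klf12 (1.21 and 0.75), all past the threshold. Klf2 and Klf4 were higher in HSC-1-like cells in batch 1 (1.30 and 1.88) but not called in batch 2 (0.15 and 0.19), and Klf6 was higher in batch 1 (1.23) and lower in batch 2 (−0.33). Klf13, Klf3 and Klf10 were called only in batch 2 (0.69, 0.47 and 0.43). In batch 1, 50.9% of genes were called for this cluster and in batch 2, 49.3%.

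The order of HSC-1-like and LMPP-like cells turned between batches for 5 members. Klf4 was at 79.7, 66.1, 125, 159 and 116 CPM in the HSC-1-like cells of young 1, young 2, aged 1, CASIN 1 and CASIN 2 and at 23.8, 24.1, 32.8, 32.8 and 20.3 CPM in the LMPP-like cells of the same samples. In young 3, aged 2, aged 3 and CASIN 3 it was at 92.5, 233, 103 and 74.4 CPM in HSC-1-like cells and at 111, 243, 133 and 158 CPM in LMPP-like cells. Klf2, Klf4 and Klf6 were each higher in HSC-1-like cells in 5 of 5 samples of batch 1 and lower in 4 of 4 samples of batch 2. Klf3 was lower in HSC-1-like cells in 5 of 5 and higher in 4 of 4, and Klf13 was lower in 4 of 5 and higher in 4 of 4.

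Klf9, Klf7 and Klf12 kept 1 order, with HSC-1-like above LMPP-like cells in 9 of 9 samples. Klf9 was at 57.2, 75.8 and 237 CPM in young, 109, 310 and 292 CPM in aged and 110, 142 and 306 CPM in CASIN HSC-1-like cells, and at 11.6, 11.2 and 79.4 CPM, 16.6, 60.02 and 100.2 CPM, and 21.9, 19.0 and 91.2 CPM in LMPP-like cells. The within-sample log2 difference of Klf9 ran from 1.54 to 2.83. It ran from 0.04 to 0.98 for Klf7 and from 0.55 to 1.99 for Klf12. Klf12 had only 1 to 11 UMIs per sample in LMPP-like cells. In cells thinned to 4000 UMIs, 31.0% of HSC-1-like and 5.35% of LMPP-like cells of batch 1 had a Klf9 UMI, and 67.0% and 28.4% of those of batch 2.

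As a test, the difference of HSC-1-like from LMPP-like cells was larger in batch 1 for Klf4 (log2 −2.52 ± 0.19, batch 2 minus batch 1), Klf2 (−2.23 ± 0.20), Klf6 (−1.75 ± 0.14) and Klf9 (−0.86 ± 0.17). It was larger in batch 2 for Klf13 (1.43 ± 0.11), Klf3 (1.33 ± 0.13), Klf10 (1.02 ± 0.15) and Klf7 (0.55 ± 0.18). All 8 had an adjusted p below 0.05, the highest 0.0461 for Klf7, where 14.8% of 12176 genes passed, while Klf12 (−0.17 ± 0.70) did not. This comparison was added after the values had been seen.

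Some smaller clusters give values only. In the monocyte and dendritic-like cluster, with 5 to 16 cells per sample, Klf4 ran from 47.2 to 729 CPM, with its lowest value in batch 2 at 536 CPM, and Klf2 from 191 to 574 CPM. The mean of Klf2 there was 371 CPM in batch 1 and 434 CPM in batch 2. The HSC-2-like cluster of a finer clustering (resolution 0.8) was named from a marker list of AP-1 and other immediate early genes. Cxcl12, Fos, Fosb, Igfbp5 and Egr1 led it, and Klf2 and Klf4 were themselves among its leading genes. It had 21 to 232 cells per sample. There Klf2 was at 382, 325 and 99.3 CPM in young, 814, 311 and 356 CPM in aged and 761, 697 and 184 CPM in CASIN samples.

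Between aged and young mice, Klf2, Klf4 and Klf10 were higher in aged LSK cells as a whole. Within batch 1, Klf2 was at 238 and 257 CPM in young and 424 CPM in aged cells, and within batch 2 at 15.8 CPM in young and 63.1 and 43.5 CPM in aged cells. Klf4 was at 28.0 and 28.1 CPM in young and 71.9 CPM in aged cells of batch 1, and at 77.4 CPM in young and 196 and 108 CPM in aged cells of batch 2. Klf10 was at 57.6, 63.6 and 40.3 CPM in young 1, 2 and 3 and at 79.7, 84.1 and 70.3 CPM in aged 1, 2 and 3. For each of these 3 genes every aged sample lay above every young sample of its batch, and for Klf10 also across batches.

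In the model the log2 fold change was 1.39 ± 0.27 (SE, n = 3 against 3, adjusted p = 0.0274, edgeR) for Klf2, 1.24 ± 0.26 (adjusted p = 0.0338) for Klf4 and 0.66 ± 0.14 (adjusted p = 0.0335) for Klf10. Within batch 1 the 3 differences were 0.77, 1.33 and 0.39, and within batch 2 they were 1.67, 0.90 and 0.92. These 3 of 10 members stood beside 4.14% of all genes called, 3.62% higher and 0.516% lower in aged cells, and no member was lower. The median log2 fold change over the 10 members was 0.54, beside 0.02 over all genes. Klf9 had a log2 fold change of 0.72 ± 0.22 (adjusted p = 0.0958), of 1.31 within batch 1 and 0.09 within batch 2, and was called by DESeq2 and by edgeR without the filter on low counts. The counts fell to 0 without young 1, without young 2, without the batch term, and with only the 2 groups in the fit. They fell to 1 without aged 2, without CASIN 1 and with a mitochondrial limit of 5%, and to 2 without aged 1 or CASIN 3. Without young 3 the 2 called were Klf4 and Klf9.

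In a sum over all LSK cells, more cells of a type and more RNA per cell cannot be told apart. HSC-1-like cells made up 17.2% to 19.2% of the cells of young and 21.6% to 42.2% of those of aged samples. In CASIN samples they made up 29.5% to 34.1%. All tested members were called higher in this cluster over both batches. In batch 2 alone Klf2 and Klf4 were not called there and Klf6 was lower. The comparisons were therefore repeated within clusters.

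Within HSC-1-like cells 4 of 9 members tested were higher in aged samples, beside 6.19% of all genes higher and 2.81% lower, and no member was lower. Klf2 was at 427, 393 and 11.7 CPM in young 1, 2 and 3 and at 690, 43.0 and 45.7 CPM in aged 1, 2 and 3. Klf10 was at 51.8, 68.4 and 58.1 CPM in young and at 88.5, 109 and 101 CPM in the aged samples. Every aged value of Klf10 lay above every young value, and those of Klf2 and Klf9 did so within each batch.

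The log2 fold changes were 1.38 ± 0.26 for Klf2 (adjusted p = 0.00624), 0.78 ± 0.14 for Klf10 (adjusted p = 0.00430), 0.63 ± 0.14 for Klf9 (adjusted p = 0.0147) and 0.40 ± 0.11 for Klf13 (adjusted p = 0.0381). Within batch 1 they were 0.75, 0.56, 0.71 and 0.30, and within batch 2 they were 1.84, 0.84, 0.35 and 0.34. Klf4 had 1.04 ± 0.31 (adjusted p = 0.0534). The smaller values were 0.29 for Klf7, 0.09 for Klf3, 0.07 for Klf6 and −0.17 for Klf12, and none of them was called. Klf2 and Klf10 kept their calls in 9 of 9 fits that left out 1 sample. Klf9 lost its call without young 1, without aged 1 and in cells thinned to 4000 UMIs, Klf10 with a mitochondrial limit of 5%, and Klf13 in all but 6 of 20 alternatives. Without the batch term no member was called.

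In LMPP-like cells no member was called in aged against young, beside 0.171% of the 11095 genes tested (0.144% higher and 0.0270% lower, 960 at an unadjusted p below 0.05) and 2 members at an unadjusted p below 0.05. Klf2 was at 314, 354 and 18.3 CPM in young and at 249, 77.8 and 57.9 CPM in aged samples, so that aged 1 lay below both young samples of its batch while aged 2 and 3 lay above young 3. Klf4 had a log2 fold change of 0.65 ± 0.22 (adjusted p = 0.379), Klf7 of 0.59 ± 0.21 and Klf2 of 0.48 ± 0.34. DESeq2 also called 0 members there.

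**Figure D3:**
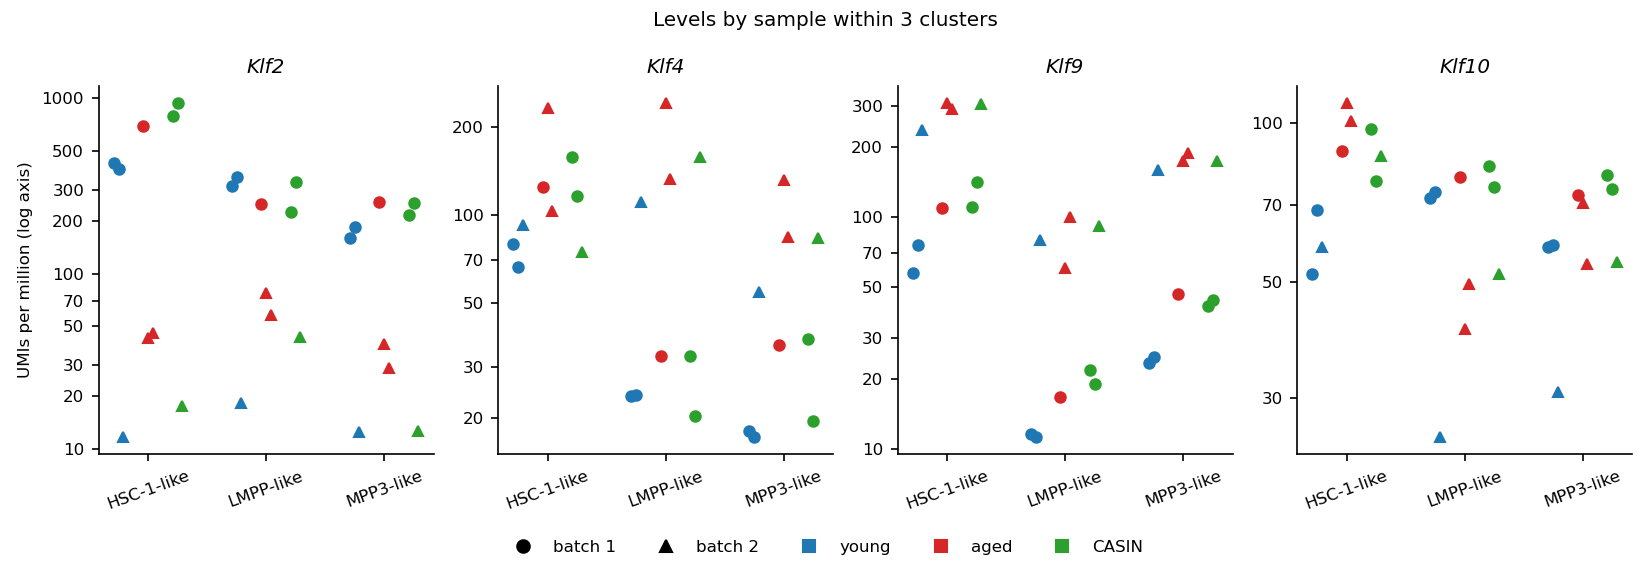
CPM (y axis, log scale) of Klf2, Klf4, Klf9 and Klf10 in HSC-1-like, LMPP-like and MPP3-like cells (x axis), 1 point per sample, circles for batch 1 and triangles for batch 2, coloured by group. Klf10 of aged HSC-1-like cells (88.5 to 109 CPM) lies above that of young ones (51.8 to 68.4 CPM), and Klf2 of batch 2 lies below 100 CPM in every cluster shown.

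The age difference of Klf2 was larger in HSC-1-like than in LMPP-like cells when the interaction itself was tested (log2 1.21 ± 0.21, adjusted p = 0.00318). It was the 1 member of 9 past the threshold, beside 2.55% of 12176 genes. The difference rested on batch 1, where Klf2 differed by 0.75 in HSC-1-like and by −0.42 in LMPP-like cells. In batch 2 the values were 1.84 and 1.82, a difference between clusters of 0.02. Without aged 1, the only aged sample of batch 1, the adjusted p was 0.0843. Klf4 (0.45), Klf10 (0.43), Klf3 (0.38), Klf9 (0.33), Klf13 (0.33) and Klf7 (−0.27) were not called in this test.

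In the other clusters of aged against young cells, Klf4 was higher in MPP3-like cells (1.03 ± 0.21, adjusted p = 0.0407, beside 1.17% of genes), Klf10 in HSC-3-like cells (0.74 ± 0.18, adjusted p = 0.0405, beside 2.04%) and Klf2 in cluster 7 (1.32 ± 0.28, adjusted p = 0.0269, beside 1.25%). In cluster 7 Klf2 had 3 UMIs in young 3, 13 in aged 2 and 14 in aged 3, the samples of batch 2 compared. The fitted log2 fold change was above 0 in 8 of 8 clusters for Klf2 (0.03 to 1.38), Klf4 (0.65 to 1.16) and Klf10 (0.38 to 0.98), and in 7 of 8 for Klf9 and Klf7. For Klf3 and Klf6 it was above 0 in 4 of 8. CC-1-like, MPP2-like and cluster 6 cells had no member called by edgeR, beside 0.204%, 0.889% and 0.205% of genes (0.0487% lower in CC-1-like cells), with 4, 3 and 3 of 8 members at an unadjusted p below 0.05, beside 1140 of 10269, 1155 of 10012 and 567 of 7321 genes. DESeq2, fits without 1 sample and the other alternatives were not run for groups in these clusters, nor in MPP3-like, HSC-3-like or cluster 7 cells.

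The share of cells with a UMI was compared at an equal depth of 4000 UMIs per cell, which left out 6 to 68 cells per sample. A Klf10 UMI was found in 20.4%, 22.0% and 16.0% of young and in 25.1%, 28.2% and 24.2% of aged LSK cells, and the groups did not overlap (difference of 6.38 percentage points, two-sided exact permutation p = 0.1, the smallest that 3 against 3 allows, and 0.6 adjusted over the 10 members). Klf10 was the 1 member of 10 without overlap, beside 8.41% of all genes compared. Klf2 was found in 48.1%, 49.7% and 4.59% of young and in 57.9%, 13.8% and 11.8% of aged cells, above young in each batch. No cluster here is known to lack Klf10 or Klf2, so no background level could be set. Without thinning, when 54.7%, 51.6% and 40.05% of young and 53.2%, 55.5% and 48.1% of aged cells had a Klf10 UMI, the groups overlapped.

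CASIN was compared with aged and with young samples. Against aged samples no member and no gene was called in all LSK, HSC-1-like or LMPP-like cells by edgeR, with 452, 437 and 577 genes and 1, 0 and 1 members at an unadjusted p below 0.05. DESeq2 called 0 members in each. In all LSK cells Klf2 had a log2 fold change of −0.71 ± 0.27 (unadjusted p = 0.0289), which was 0.01 within batch 1 and −1.28 within batch 2. In batch 1 the CASIN samples were at 398 and 460 CPM beside 424 CPM in the aged sample, and in batch 2 at 21.0 CPM beside 63.1 and 43.5 CPM.

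Klf4 had values of −0.42 ± 0.27 in all LSK, −0.43 ± 0.31 in HSC-1-like and −0.34 ± 0.22 in LMPP-like cells and was below 0 in 8 of 8 clusters, down to −1.22 in MPP2-like cells, with no call. Klf3 was above 0 in 8 of 8 clusters (0.03 to 0.36), also with no call. At an unadjusted p below 0.05 there were 3 of 8 members in CC-1-like and 2 of 9 in MPP3-like cells, beside 831 and 607 genes. MPP2-like and cluster 6 cells had 1 member each, beside 673 and 365 genes. HSC-3-like and cluster 7 cells had 0, beside 363 and 309 genes. Clusters drawn from the same libraries are not separate replicates. Klf10 had −0.20 ± 0.14, Klf9 0.13 ± 0.22 and Klf13 0.07 ± 0.09 in all LSK cells. With aged 1 left out, Klf2 in HSC-1-like cells was called (−1.19, adjusted p = 0.0110), a fit in which the aged samples all came from batch 2.

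Against young samples, CASIN samples had 4 of 9 members higher in HSC-1-like cells, beside 15.4% of all genes called (9.14% higher and 6.27% lower). Klf2 was at 427 and 393 CPM in young and 785 and 941 CPM in CASIN cells of batch 1, and at 11.7 and 17.6 CPM in batch 2. The log2 fold changes were 0.99 ± 0.23 for Klf2 (adjusted p = 0.00991), 0.79 ± 0.14 for Klf9 (adjusted p = 0.00227), 0.61 ± 0.13 for Klf10 (adjusted p = 0.00712) and 0.38 ± 0.11 for Klf13 (adjusted p = 0.0297). Within batch 1 they were 1.07, 0.91, 0.54 and 0.35, and within batch 2 they were 0.55, 0.37, 0.57 and 0.25. Klf4 had 0.61 ± 0.30 (adjusted p = 0.190), which was 0.89 within batch 1 and −0.31 within batch 2.

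The 2 comparisons with young samples share those samples, so their similarity carries no weight of its own. Klf2 lost its call without young 2 or CASIN 2, Klf10 without young 1, Klf13 without young 1, young 3 or any of the CASIN samples, and none was called without the batch term. In HSC-3-like cells Klf2 (0.91 ± 0.20, adjusted p = 0.0161) and Klf9 (0.63 ± 0.16, adjusted p = 0.0397) were higher in CASIN than in young samples, beside 2.49% of genes. Klf2 had 3 UMIs there in young 3 and 18 in CASIN 3. MPP3-like cells had no member called, beside 0.390% of genes higher and 0.0677% lower, and CC-1-like cells had none beside 0.195% higher and 0.0195% lower, with 3 of 9 and 0 of 8 members at an unadjusted p below 0.05, beside 1540 of 11809 and 810 of 10269 genes.

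In all LSK cells no member was called between CASIN and young samples, beside 4.50% of genes (4.09% higher and 0.416% lower), with 4 of 10 members and 3294 of 13948 genes at an unadjusted p below 0.05. Klf9 (0.85 ± 0.22, adjusted p = 0.0613), Klf4 (0.82 ± 0.26, adjusted p = 0.1003), Klf2 (0.68 ± 0.25, adjusted p = 0.141) and Klf10 (0.46 ± 0.13, adjusted p = 0.0796) were those 4. DESeq2 called Klf4 and Klf9, as edgeR did without young 3, and without aged 1 edgeR called Klf2, Klf9 and Klf10. In LMPP-like cells no member was called by either tool, beside 0.0721% of genes, with 2 of 8 members and 695 of 11095 genes at an unadjusted p below 0.05.

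**Figure D4:**
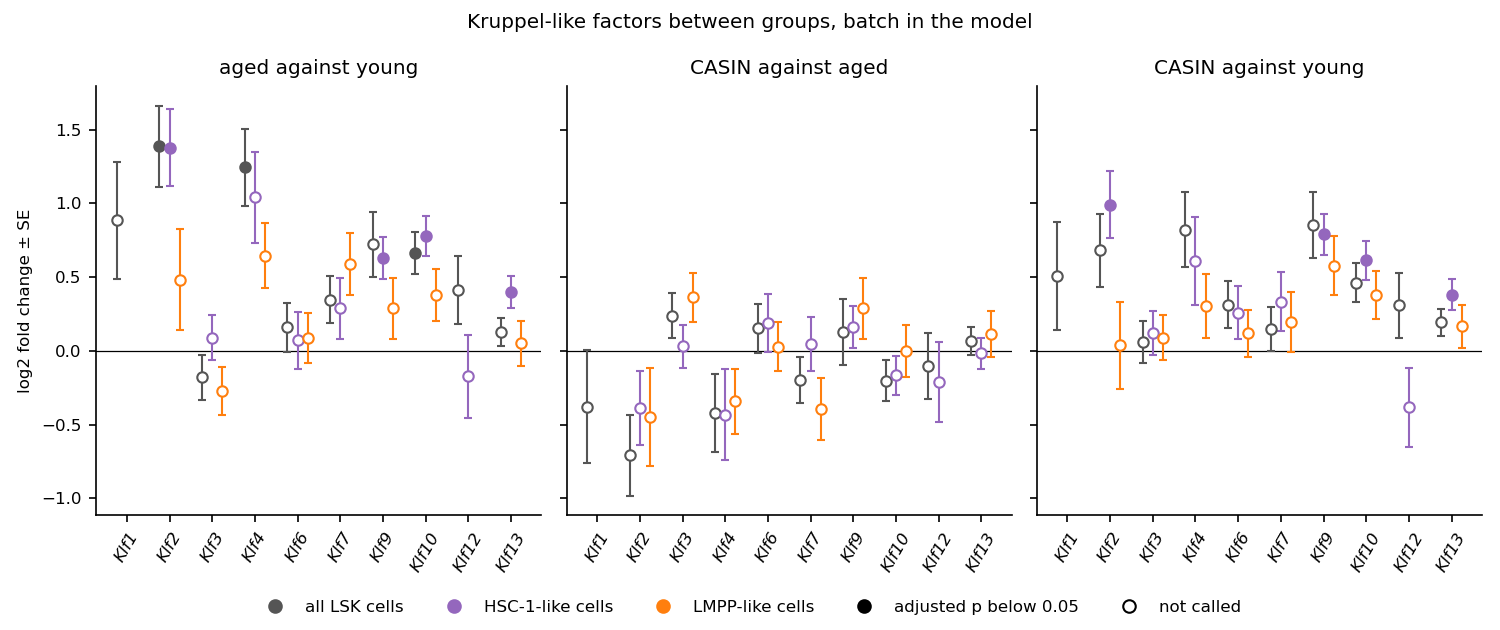
Log2 fold change with its SE (y axis) of each Krüppel-like factor (x axis) for aged against young, CASIN against aged and CASIN against young samples, in all LSK, HSC-1-like and LMPP-like cells, from the model with batch as a term, filled where the adjusted p is below 0.05. Filled points stand in the aged-young and CASIN-young panels (Klf2, Klf4, Klf9, Klf10 and Klf13, 0.38 to 1.39), and the CASIN-aged panel has open points only.

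Genes around the KLFs were counted from lists of upstream factors, partners and targets, chosen with earlier results of these data known. Among all genes tested in HSC-1-like cells, 6.19% were higher in aged and 9.14% in CASIN than in young samples. Of 9 genes upstream of Klf2 and Klf4, 2 were higher in aged than in young HSC-1-like cells. They were Foxo1 (0.53 ± 0.14), a forkhead factor that activates Klf2 in lymphocytes, and Mef2d (0.41 ± 0.12), a MEF2 factor, while the list's median was 0.20 beside 0.01 for all genes. In CASIN against young samples the same 2 were higher (0.69 ± 0.14 and 0.40 ± 0.11). No gene of the list was called in LMPP-like cells.

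Among known targets of Klf2, 3 of 6 tested were higher in aged HSC-1-like cells, beside 6.19% of all genes. These were Thbd (2.32 ± 0.43), which encodes thrombomodulin, and the cyclin-dependent kinase inhibitors Cdkn1a (1.03 ± 0.17) and Cdkn1c (0.81 ± 0.13). CASIN samples had the same 3 higher than young ones. Thbd had few UMIs, with mean levels in these cells of 1.16 CPM for the young and 7.49 CPM for the aged samples. In all LSK cells Thbd (2.16) and Cdkn1c (1.32) were called of the 8 tested.

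Klf1 targets, most of them red cell genes, had 1 of 7 tested higher in aged HSC-1-like cells, Blvrb (0.59 ± 0.11), which encodes biliverdin reductase B. CASIN against young samples had Blvrb (0.71 ± 0.11) and Bcl11a (0.37 ± 0.11), a repressor of fetal globin genes, higher. Of the corepressors and other partners, 0 of 11 were called between aged and young samples in the 3 sets of cells, at a median of −0.05 in all LSK cells, and Hdac2 was lower in CASIN than in young HSC-1-like cells (−0.37 ± 0.11). Sp genes, the nearest relatives of the KLFs, had 0 of 4 tested called between aged and young samples, and Sp3 was lower in CASIN than in young HSC-1-like cells (−0.39 ± 0.12). Of the 7 Klf genes outside the 10, 4 could be tested and none was called. Klf11 (0.83 ± 0.31, adjusted p = 0.165) and Klf8 (0.71 ± 0.29, adjusted p = 0.191) had the largest values in aged against young LSK cells, and Klf17 was at 0 in every sample.

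The immediate early and handling-response genes were counted in the same way. Of 24 such genes, 13 were higher in aged than in young LSK cells (median 1.01), 16 in HSC-1-like cells (0.95) and 1, Maff, in LMPP-like cells (0.77). The shares of all genes higher were 3.62%, 6.19% and 0.144%. Nr4a2 (2.19 ± 0.27), Nr4a1 (1.58 ± 0.23), Btg2 (1.44 ± 0.28) and Junb (1.41 ± 0.20) had the largest values among those called in HSC-1-like cells. The list's summed level in HSC-1-like cells was 10960, 10896 and 3382 CPM in young, 17498, 7840 and 5648 CPM in aged and 18008, 17389 and 4506 CPM in CASIN samples. Aged 2 and 3 lay above young 3 and below young 1 and 2. In CASIN against aged samples 0 of the 24 were called (median −0.40), and in CASIN against young 12 were higher (0.57), beside 9.14% of all genes. The part of these 24 genes in the KLF differences was not tested.

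Markers of other cells varied between samples. In all LSK cells lymphocyte markers (4 of 5 tested), granulocyte markers (4 of 5), and stromal and endothelial markers (3 of 6) had none called between groups. Granulocyte markers summed to 4.84 to 89.0 CPM in young and 28.3 to 420 CPM in aged samples, the highest in aged 3. In HSC-1-like cells stromal markers reached 105 CPM in young 3 and stayed at or below 24.0 CPM in the 8 other samples. Platelet markers had Gp9 higher in aged (0.92 ± 0.23) and in CASIN (0.84 ± 0.22) than in young HSC-1-like cells, and Pf4 lower in CASIN than in young (−0.71 ± 0.18).

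The genes most like each member were sought by Pearson's r over 72 sums (8 clusters of 9 samples), after the mean of each batch had been taken out, among the 8035 genes with a mean of at least 10 CPM. These sums share libraries and cells, and r is a description. Klf2 was most like Dusp1 (0.85), Atf3 (0.83) and Mcl1 (0.83), and Klf4 most like Fosb (0.86), Mcl1 (0.83) and Jund (0.79). Klf9 was most like Mllt3 (0.90), Aplp2 (0.90) and Myct1 (0.89), where Mllt3 is one of the markers that named the HSC-1-like cluster. Klf10 followed Coq10b (0.76), Fosl2 (0.70) and Socs3 (0.69), Klf6 followed Crebrf (0.83), and Klf13 followed 2900026A02Rik (0.77) and Bcor (0.75). Among the members themselves, Klf2 with Klf4 (0.68), Klf4 with Klf6 (0.67) and Klf6 with Klf9 (0.66) had the highest r, and Klf1 with Klf7 (−0.30) the lowest.

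Across single cells the members went together only weakly. Spearman's rho with the summed handling-response genes in HSC-1-like cells had a median over samples of 0.25 for Klf2 and 0.19 for Klf4. The part of the sparse counts of a single cell in these values was not tested.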

How the data were processed

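RNA of LSK cells from 9 samples (3 young, 3 aged and 3 CASIN) was analysed. Per the labels and the study's methods, the authors aligned reads to mm10 and made the deposited UMI counts per gene and cell with Cell Ranger 3.1.0. How strand was treated is not given in the sources used here, and antibody tag libraries were not used here.

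Cells were kept with 1000 to 40000 UMIs, at most 6000 genes, at most 10% mitochondrial UMIs and a residual of genes on UMIs of at most 0.4. Cells were clustered with Seurat 5.3.0 (SCTransform, anchors over 30 dimensions, 35 components, resolution 0.4) with every Klf gene left out of the features, and named from marker lists. Scrublet (scanpy 1.11.5) marked 71 cells (0.448%), too few to have worked, so no cell was removed as a doublet.

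Raw counts were summed per sample, over all LSK cells or within a cluster with at least 20 cells in every sample. They were tested with edgeR 4.0.16 (quasi-likelihood, TMM, filterByExpr, R 4.3.3) with group and sequencing batch as terms over all 9 samples, and p-values were adjusted over all genes (Benjamini-Hochberg, threshold 0.05). Clusters were compared with sample as a block, and cell shares after thinning by an exact permutation test (scipy 1.17.1). The SE is the log2 fold change divided by the square root of F. Within-batch values are differences of mean log2(CPM + 1). DESeq2 1.42.0, other size factors, no filter, no batch term, a replicate block, fewer samples and other cell filters were alternatives. On simulated counts with known changes of 1 on the log2 scale, the aged against young test recovered 61% of them in all LSK cells (13948 genes) and 66% in HSC-1-like cells. For a change of 0.5 it recovered 16% and 15%. Of its calls on these counts, 8.33% were false in all LSK cells and 6.90% in HSC-1-like cells, beside the threshold of 0.05.

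All 10 members were described in each comparison. Of other lists, up to 4 called genes with the largest change and 1 direction in both batches were named, with the 3 genes of highest r per member sought. The members and lists were chosen with earlier results of these data known. The result of 1 gene of these lists is not reported here.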

Additional observations from a re-analysis of the deposited data

Results flagged for a closer look

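The age difference of Klf2 differed between HSC-1-like and LMPP-like cells by a test of the difference itself (log2 1.21 ± 0.21, edgeR, adjusted p = 0.00318). Aged samples lay above young samples of their batch in HSC-1-like cells in 3 of 3 samples, and in LMPP-like cells in 2 of 3. The difference between the clusters was 1.17 within batch 1, which holds 1 aged sample, and 0.02 within batch 2, which holds 1 young sample. Without aged 1 the adjusted p was 0.0843.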

How the results depend on the processing

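Counts below are of members called. In aged against young LSK cells the count of 3 became 0 without the batch term, with a replicate block or with only the 2 groups compared, and 1 with a mitochondrial limit of 5%. In CASIN against young LSK cells the count of 0 became 2 with DESeq2, 4 without a filter on low counts or with only the 2 groups, and 1 in cells thinned to 4000 UMIs or with all deposited barcodes. In HSC-1-like cells, leaving out the batch term gave 0 for both aged and CASIN against young, and turned Klf2 in aged against young to −0.027. Without a filter the count was 1 for aged against young LMPP-like cells and 2 for the interaction. Shares of cells gave 2 members without overlap at 2000 UMIs, and 0 without thinning or with the limit of 5%. The share of all genes without overlap given above is for 4000 UMIs and all samples. It does not apply to these counts, nor to those without 1 sample, where groups separate more easily. Leaving out 1 sample gave 0 to 3 for aged and for CASIN against young LSK cells, 2 to 4 for each in HSC-1-like cells, 0 to 1 for CASIN against aged HSC-1-like cells, 6 to 8 for batch, 30 to 34 for subsets, 0 to 3 for the interaction and 1 to 5 for shares. With each batch alone, an alternative chosen after seeing the data, subset differences turned in batch 1 for Klf13 in HSC-1-like cells (−0.035) and for Klf4 (−0.31), Klf10 (0.19) and Klf13 (0.33) in LMPP-like cells. They turned in batch 2 for Klf6 in HSC-1-like (−0.33), Klf3 in LMPP-like (−0.41), Klf2 in CC-1-like (0.57), Klf2 (−0.70) and Klf6 (−0.32) in HSC-3-like cells and Klf4 in cluster 7 (−0.42). Apart from these single-batch and batch-term values, the cause was not tested. Same-numbered samples did not deviate together (r from −0.51 to 0.30). With 3 samples a group, these values cannot settle whether the replicate numbers mark pairs. Leaving out cells with a shared barcode or the cells of highest doublet score was also chosen after seeing the data. With 3 samples a group split over 2 batches, within-batch values rest on 1 or 2 samples.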
